A study of Mus musculus with 9 samples.

Results

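The genes described here are 8 genes of Schwann cells and of the myelin they make: Mbp, Pmp22, Mag, Prx, Sox10, S100b, Cnp and Ncam1. They were chosen by name, from what is known of these cells, but with earlier results of these data known. The genes were found by symbol among 55401 annotated features in RNA sequencing of mouse ears. All 8 passed the filter on low counts and were among the 21925 genes tested. The 9 libraries fall into 3 groups of 3. In the first, C57 mice had ears treated with MC903 (calcipotriol, an analogue of vitamin D that is painted on mouse skin to model atopic dermatitis) and also received 200 mg/kg of paeonol, a small phenol from the root bark of the peony. In the second the ears had MC903 alone, and in the third, the controls, absolute ethanol. No group had paeonol without MC903, and the labels give neither a genotype beyond C57 nor age, sex, dosing schedule, the route of paeonol or its vehicle. The series title places the interest in TRPV3, NF-κB and CCL3 of keratinocytes, so the nerve is measured here as another part of the same tissue.

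Schwann cells are the glia of peripheral nerves. Myelinating Schwann cells wrap large axons in compact myelin, while non-myelinating ones hold bundles of thin fibres, and both are found in the nerves of skin. The transcription factors Sox10 and Egr2 drive the genes of compact myelin, among them Mbp and Pmp22. After loss of axon contact Schwann cells lower these genes and turn on others, Ngfr among them, in a state known as the repair cell.

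In GRCm38, Pmp22 is on chromosome 11 (63128982 to 63159547, plus strand), Cnp on chromosome 11 (100574904 to 100591729, plus strand), Prx on chromosome 7 (27499324 to 27520214, plus strand), Mag on chromosome 7 (30899176 to 30914873, minus strand), Sox10 on chromosome 15 (79154908 to 79165240, minus strand), S100b on chromosome 10 (76253853 to 76261159, plus strand) and Ncam1 on chromosome 9 (49502136 to 49798925, minus strand). RefSeq promoter sequence of GRCm38.p6 was matched for 5 of the 8 members. The stretch before the most upstream start of each follows, 5′ to 3′ on the gene's strand and cut at the first exonic base. These genes all fell in MC903 against control, and whether these stretches bear on that fall was not tested. Capitals mark the letters ACAAAG, a core that SOX factors bind, or their reverse complement CTTTGT.
Pmp22, chr11:63128732-63128981, plus strand: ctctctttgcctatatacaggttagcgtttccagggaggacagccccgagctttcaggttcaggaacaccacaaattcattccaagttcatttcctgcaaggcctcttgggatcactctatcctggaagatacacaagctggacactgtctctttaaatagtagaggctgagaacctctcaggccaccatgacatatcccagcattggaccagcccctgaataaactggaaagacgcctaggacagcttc
Mag, chr7:30914923-30915172, minus strand: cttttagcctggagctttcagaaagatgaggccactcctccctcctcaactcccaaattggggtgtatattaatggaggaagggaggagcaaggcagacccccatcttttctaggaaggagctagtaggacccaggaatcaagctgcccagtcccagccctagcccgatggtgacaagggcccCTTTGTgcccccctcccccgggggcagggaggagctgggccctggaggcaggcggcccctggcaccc
Prx, chr7:27499074-27499323, plus strand: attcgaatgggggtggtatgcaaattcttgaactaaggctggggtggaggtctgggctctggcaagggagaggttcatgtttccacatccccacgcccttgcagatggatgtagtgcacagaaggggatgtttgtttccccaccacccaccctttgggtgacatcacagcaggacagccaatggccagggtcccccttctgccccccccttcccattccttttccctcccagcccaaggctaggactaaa
S100b, chr10:76253586-76253835, plus strand: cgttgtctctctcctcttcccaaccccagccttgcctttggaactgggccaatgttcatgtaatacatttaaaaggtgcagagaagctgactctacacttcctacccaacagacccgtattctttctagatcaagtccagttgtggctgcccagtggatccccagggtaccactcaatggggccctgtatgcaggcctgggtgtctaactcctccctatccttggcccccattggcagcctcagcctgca
Cnp, chr11:100574689-100574903, plus strand: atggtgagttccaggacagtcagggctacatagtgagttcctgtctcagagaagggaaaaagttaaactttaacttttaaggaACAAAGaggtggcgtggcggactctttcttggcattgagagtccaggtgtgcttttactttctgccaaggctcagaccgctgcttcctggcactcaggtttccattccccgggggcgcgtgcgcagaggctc

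Both strands were searched for ACAAAG, for a second SOX core, ACAATG, and for GTGGGCG, a core that EGR factors bind. The letters do not overlap each other. Over the 10 promoter windows of these 5 genes, ACAAAG was found in 3, which belong to Mag and Cnp, 2 of the 5 genes. The Mag windows among the 3 overlap and hold the same match, which is thus counted in each. The match begins at base 184 of the Mag stretch, as CTTTGT, and that of Cnp at base 84 of its stretch, as ACAAAG. Among all 32851 mouse promoter windows of the table, 16.5% hold ACAAAG, 10.7% hold ACAATG and 7.02% hold GTGGGCG, and of the 27025 genes they belong to, 18.6% have a window with ACAAAG. The letters ACAATG and GTGGGCG are in none of the members' 10 windows. A match is a description of the sequence and not a site.

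Expression is given in CPM, estimated counts scaled to counts per M of a library size adjusted by the trimmed mean of M values (TMM), with mean ± SD over n = 3 libraries. Differences are log2 changes ± SE from edgeR's quasi-likelihood test, two-sided, and calls are at an adjusted p under 0.05 (Benjamini-Hochberg over all genes tested). The libraries held 54.26 to 57.75 M estimated counts. Whether each library is a different animal is not said in the labels; the p-values therefore reflect the spread between these samples alone, and it may be technical. In bulk tissue, fewer cells of a type and less RNA per cell cannot be told apart.

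MC903 ears held less RNA of all 8 Schwann cell and myelin genes than control ears. All 8 fell, by 0.61 to 1.74 on the log2 scale, and each was lower in every MC903 library than in every control library. Genes called made up 46.8% of all genes tested in this comparison, with 23.8% called lower and 23.0% called higher, and 29.8% were lower in every library. The median log2 change was -1.25 over the 8 members and -0.02 over all genes tested. With scaling by library totals alone, the genes called were 3402 higher and 7224 lower, against 5044 higher and 5215 lower with TMM, and the median of all genes was -0.205. All 8 members were called lower under that scaling too.

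Compared with MC903 alone, ears given MC903 with paeonol had more RNA of Mbp, Prx and S100b. These 3 rose by 0.52 to 0.70 on the log2 scale, and the other 5 did not pass the test. Genes called made up 29.7% of all genes tested, with 15.3% called higher and 14.3% called lower, and 21.9% were higher in every library. The median log2 change was 0.39 over the 8 members and 0.00 over all genes tested. Compared with control ears, all 8 members fell in ears given MC903 with paeonol, with a median log2 change of -0.94 against -0.03 over all genes tested, in a comparison where 30.9% of genes were called, 14.5% lower and 16.3% higher, and 23.6% were lower in every library. Without the second control library or the third paeonol library 5 of the 8 members were called in that comparison, and with scaling by library totals alone its genes called were 2155 higher and 5354 lower, against 3578 and 3187 with TMM. The comparison of paeonol with MC903 uses the same MC903 libraries as that of MC903 with control, and the comparisons with control share the control libraries, so they are given side by side and are not independent of each other.

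**Figure D1:**
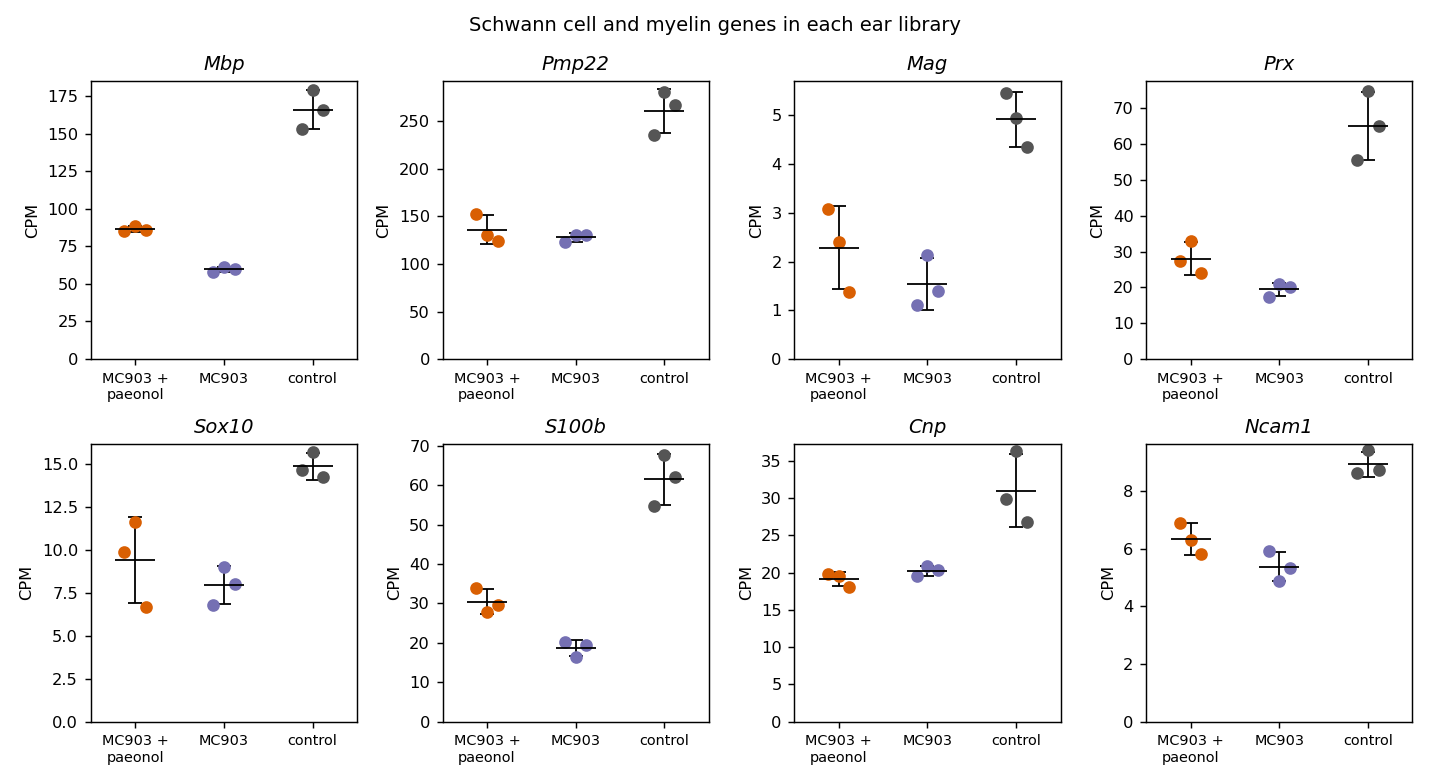
Level of each of the 8 genes (vertical axis, CPM, from 0) in the ears given MC903 with paeonol, MC903 or absolute ethanol (control). Points are libraries and bars the mean ± SD over 3 libraries. For every gene all control points lie above all others, and the paeonol points lie wholly above the MC903 points for Mbp, Prx and S100b.

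Among the proteins that build and compact the sheath, Mbp, myelin basic protein, holds the cytoplasmic faces of the membrane together. It had 85.5, 88.6 and 85.6 CPM in the libraries given MC903 with paeonol, 57.9, 61.1 and 59.8 CPM in MC903 libraries, and 153, 179 and 166 CPM in control libraries. The 3 groups did not overlap, and the libraries within each treated group lay close together. Mbp fell by 1.48 ± 0.07 on the log2 scale in MC903 against control (adjusted p = 1.33e-07), to 35.9% of the control mean. With paeonol it was 0.54 ± 0.06 higher than with MC903 alone (adjusted p = 0.000116) and fell by 0.94 ± 0.06 against control (adjusted p = 1.16e-05), at 52.2% of the control mean.

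Pmp22, a tetraspan protein of compact myelin that other cells of skin also make, had 153, 131 and 124 CPM with paeonol, 123, 131 and 130 CPM with MC903 alone and 236, 281 and 267 CPM in controls. Both treated groups lay below the controls and overlapped each other. The log2 change was -1.03 ± 0.09 in MC903 against control (adjusted p = 3.88e-06) and -0.95 ± 0.09 with paeonol against control (adjusted p = 3.99e-05). Between paeonol and MC903 alone it was 0.08 ± 0.09 (adjusted p = 0.539), and it turned to -0.01 without the first paeonol library.

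Prx encodes periaxin, which sits in the Schwann cell membrane that faces the basal lamina. It had 27.4, 32.8 and 23.9 CPM with paeonol, 17.4, 20.9 and 20.2 CPM with MC903 alone and 55.5, 74.7 and 64.9 CPM in controls, so the 3 groups did not overlap. Prx fell by 1.74 ± 0.14 in MC903 against control (adjusted p = 2.54e-06), to 30.0% of the control mean. It was 0.52 ± 0.14 higher with paeonol than with MC903 alone (adjusted p = 0.0128), and this call ended without the first MC903 library (adjusted p = 0.0508) or the second paeonol library (adjusted p = 0.0568). Against control the change with paeonol was -1.21 ± 0.13 (adjusted p = 0.000114).

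Mag, a glycoprotein of the membrane next to the axon, was the least abundant member, with 56 to 341 estimated counts per library. It had 3.07, 2.4 and 1.38 CPM with paeonol, 1.1, 2.14 and 1.4 CPM with MC903 alone and 5.46, 4.95 and 4.34 CPM in controls. The controls lay above both treated groups, which overlapped. Its change was -1.67 ± 0.32 in MC903 against control (adjusted p = 0.00129), with the widest SE of the 8. With paeonol it was -1.10 ± 0.32 against control (adjusted p = 0.0209), a call that ended without control library 1 or 2 or paeonol library 2 or 3 (adjusted p = 0.0513 to 0.0664). The difference between paeonol and MC903 alone was 0.56 ± 0.32 (adjusted p = 0.226), and it ran from 0.293 without the first paeonol library to 0.872 without the second MC903 library.

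Cnp is an enzyme of the cytoplasmic channels of myelin. It had 19.8, 19.5 and 18.1 CPM with paeonol, 19.6, 20.9 and 20.3 CPM with MC903 alone and 29.9, 36.4 and 26.8 CPM in controls. Its change in MC903 against control was -0.61 ± 0.11 (adjusted p = 0.00076), and with paeonol it was -0.70 ± 0.11 against control (adjusted p = 0.000782). Between paeonol and MC903 alone the estimate was -0.08 ± 0.11 (adjusted p = 0.638), and the libraries overlapped.

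Sox10, the transcription factor of the Schwann cell lineage, had 9.89, 11.6 and 6.67 CPM with paeonol, 6.77, 8.98 and 8.02 CPM with MC903 alone and 14.6, 15.7 and 14.2 CPM in controls. The treated groups overlapped, and the third paeonol library was the lowest of the 9. Sox10 changed by -0.90 ± 0.19 in MC903 against control (adjusted p = 0.00205) and by -0.66 ± 0.19 with paeonol against control (adjusted p = 0.02). The second of these calls ended without the second control library (adjusted p = 0.0631) or the third paeonol library (adjusted p = 0.0516). Between paeonol and MC903 alone the change was 0.25 ± 0.19 (adjusted p = 0.378), and it ran from 0.0637 without the second paeonol library to 0.44 without the third paeonol library.

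S100b, a calcium-binding protein of Schwann cells, had 34.0, 27.7 and 29.6 CPM with paeonol, 20.3, 16.3 and 19.5 CPM with MC903 alone and 54.7, 67.6 and 62.0 CPM in controls. The 3 groups did not overlap. S100b fell by 1.72 ± 0.11 in MC903 against control (adjusted p = 8.45e-07) and, with paeonol, by 1.01 ± 0.11 against control (adjusted p = 0.000105). It rose by 0.70 ± 0.11 with paeonol against MC903 alone (adjusted p = 0.000751), to 163% of the MC903 mean.

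Ncam1, an adhesion molecule of non-myelinating Schwann cells and of other cells, had 6.91, 6.29 and 5.81 CPM with paeonol, 5.91, 4.9 and 5.32 CPM with MC903 alone and 8.63, 9.42 and 8.74 CPM in controls. Its change was -0.73 ± 0.14 in MC903 against control (adjusted p = 0.00138) and -0.49 ± 0.14 with paeonol against control (adjusted p = 0.0215). That second call ended without control library 2 or 3 or paeonol library 2 or 3 (adjusted p = 0.0533 to 0.0794). The treated groups overlapped, with a change of 0.24 ± 0.14 (adjusted p = 0.254).

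**Figure D2:**
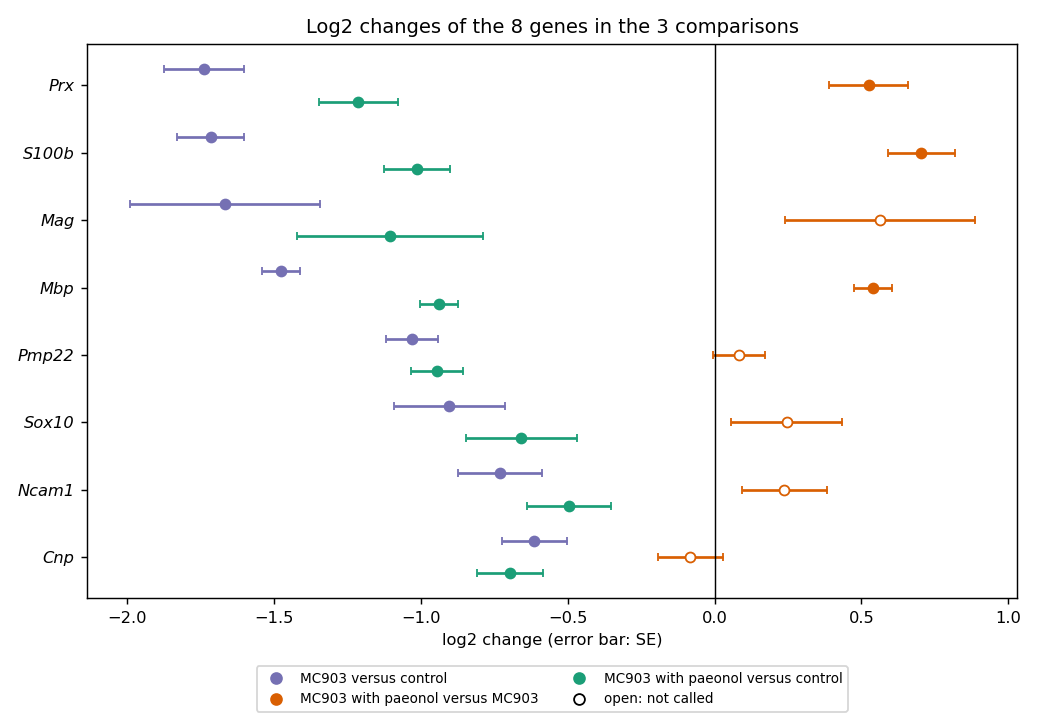
Log2 change (horizontal axis) of each of the 8 genes, with bars for the SE; filled symbols passed the test and open ones did not. The changes run from -1.74 (Prx) to -0.61 (Cnp) in MC903 against control and from -0.08 (Cnp) to 0.70 (S100b) between paeonol and MC903 alone.

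Per kilobase of exon, the order of the levels differed little between the groups. In MC903 with paeonol, Pmp22 was the highest at 57.7 CPM per kb, followed by S100b at 20.5, Mbp at 10.2, Cnp at 5.26, Prx at 5.02, Sox10 at 3.08, Ncam1 at 0.731 and Mag at 0.561 CPM per kb. The libraries of Cnp and Prx overlapped there, as did those of Ncam1 and Mag. In MC903 alone the order was the same, with Pmp22 at 54.4, S100b at 12.6, Mbp at 7.04, Cnp at 5.57, Prx at 3.49, Sox10 at 2.6, Ncam1 at 0.621 and Mag at 0.38 CPM per kb, and no neighbours overlapped. In controls Prx stood above Cnp, at 11.7 against 8.53 CPM per kb, with overlapping libraries, and Mag and Ncam1 overlapped at 1.21 and 1.03. The higher control levels were 111 CPM per kb for Pmp22, 41.4 for S100b and 19.6 for Mbp, and Sox10 lay between Cnp and Mag at 4.86.

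Levels of some members relative to others differed between the groups. The log2 ratio of Mbp to Cnp within a library was 2.11, 2.18 and 2.24 with paeonol, 1.56, 1.55 and 1.55 with MC903 alone and 2.36, 2.29 and 2.63 in controls. MC903 libraries thus had less Mbp for the same Cnp than every other library, although the level of Cnp is uncertain because it shares exons with another gene. The log2 ratio of S100b to Pmp22 was -2.17, -2.23 and -2.06 with paeonol, -2.6, -3.0 and -2.74 with MC903 alone and -2.11, -2.06 and -2.11 in controls. Here the paeonol and control libraries overlapped and the MC903 libraries lay below both. The ratios of Mbp and of Prx to Pmp22 were also lower in every MC903 library than in all others. The log2 ratio of Mbp to Sox10 did not separate the groups in this way, at 3.11, 2.93 and 3.68 with paeonol, 3.09, 2.76 and 2.89 with MC903 alone and 3.39, 3.51 and 3.54 in controls. These gene pairs were picked after their values were seen, so the ratios are a description with no test.

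Outside the 8, a list of 15 other genes of compact myelin and its assembly was tested. In MC903 against control 13 of the 15 fell and 1 rose, with a median log2 change of -1.31. Over all genes tested 23.8% were called lower and 23.0% higher in that comparison. Cldn19, a claudin of Schwann cell tight junctions, changed by -1.50 ± 0.14 in MC903 against control (adjusted p = 6.82e-06) and by 0.62 ± 0.14 with paeonol against MC903 alone (adjusted p = 0.0058). Pllp, plasmolipin, a membrane protein of myelin, had 2.86 to 3.26 CPM with paeonol, 1.78 to 3.31 CPM with MC903 alone and 8.45 to 12.1 CPM in controls. It fell by 2.04 ± 0.24 in MC903 against control (adjusted p = 3.01e-05) and, with paeonol, by 1.75 ± 0.23 against control (adjusted p = 0.000275). Between paeonol and MC903 alone its change was 0.29 ± 0.23 (adjusted p = 0.406), from 0.0832 without the third MC903 library to 0.522 without the second.

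Egr2, the transcription factor that drives myelination and that cells of the hair follicle and the immune system also make, had 33.3, 32.7 and 36.6 CPM with paeonol, 11.8, 9.09 and 8.75 CPM with MC903 alone and 40.7, 36.9 and 37.2 CPM in controls. The paeonol libraries lay just under the controls and far above the MC903 libraries. Egr2 changed by -1.95 ± 0.12 in MC903 against control (adjusted p = 4.81e-07) and by 1.79 ± 0.12 with paeonol against MC903 alone (adjusted p = 2.99e-06). With paeonol against control the change was -0.16 ± 0.11 (adjusted p = 0.312), and with scaling by library totals alone it was -0.33 and called (adjusted p = 0.0356).

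Among these genes, Gjb1 and Nfasc, named after their values were seen, did not pass the test as lower in MC903 against control. Gjb1, a gap junction protein, had a log2 change of 0.59 that was not called. Nfasc, an adhesion molecule of the node and its flanks, rose by 0.72 ± 0.15 (adjusted p = 0.00216).

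With paeonol against MC903 alone, 5 of the 15 rose, 1 fell and 9 were not called, with a median log2 change of 0.40. Over all genes tested 29.7% were called in that comparison, 15.3% higher and 14.3% lower. The genes that rose were Egr2 and Cldn19 and, named after their values were seen, Pou3f1, Gal3st1 and Fa2h. Fa2h makes 2-hydroxylated fatty acids for myelin lipids and is also used by the sebaceous gland. It had 510 to 735 CPM with paeonol, 53.9 to 177 CPM with MC903 alone and 803 to 1030 CPM in controls, and rose by 2.44 ± 0.44 with paeonol against MC903 alone (adjusted p = 0.00635). Gal3st1, which makes sulfatide, rose by 1.28 ± 0.20 (adjusted p = 0.000719), and Pou3f1, a transcription factor of promyelinating Schwann cells and of epidermis, by 1.12 ± 0.10 (adjusted p = 2.29e-05). Nfasc was the gene that fell, by 1.40 ± 0.16 (adjusted p = 7.15e-05). With paeonol against control 8 of the 15 fell and 1, Pou3f1, rose by 0.40 ± 0.10 (adjusted p = 0.0118), a rise not called with library totals alone (adjusted p = 0.115) or without the second paeonol library (adjusted p = 0.0501). Over all genes tested 14.5% were called lower and 16.3% higher against control with paeonol.

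**Figure D3:**
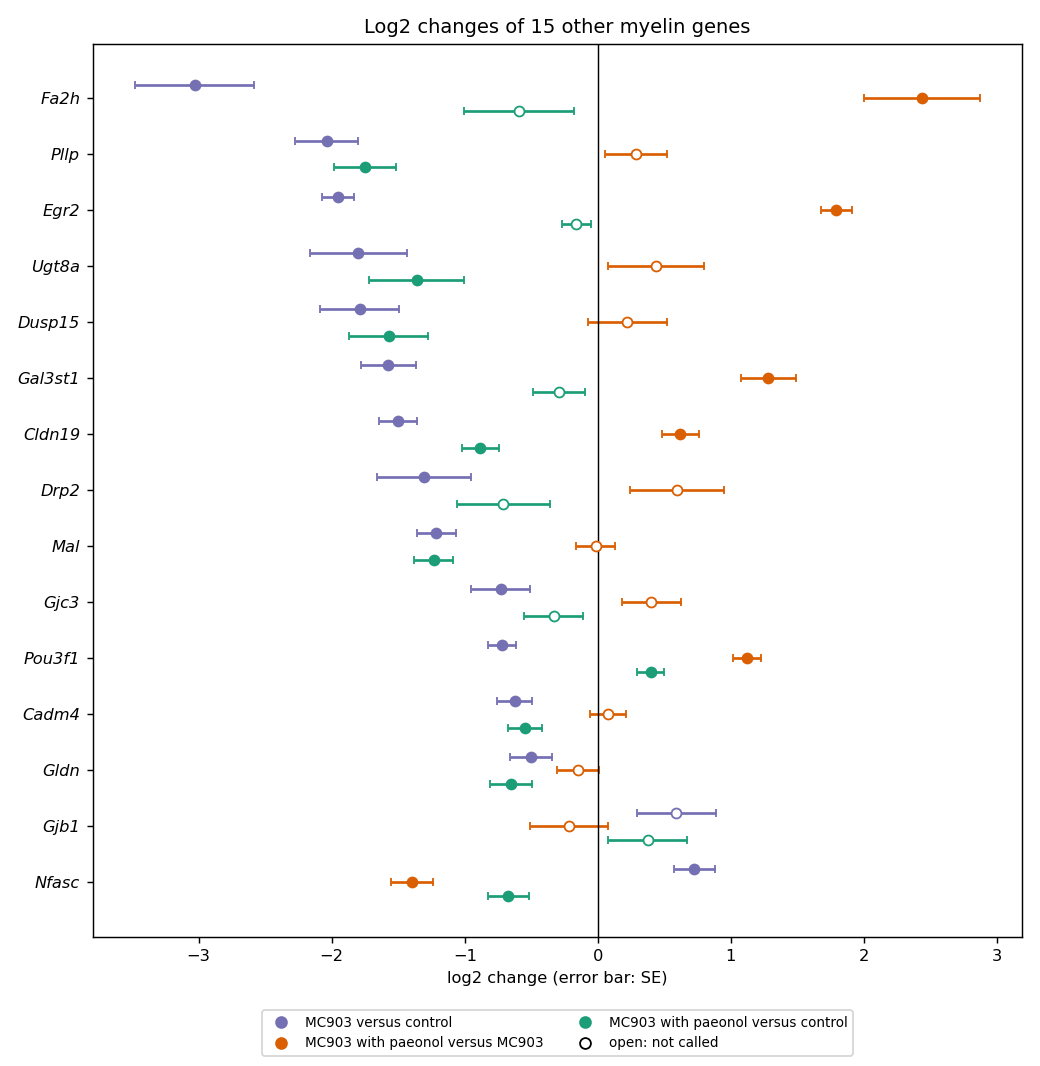
Log2 change (horizontal axis) of 15 other myelin genes in the 3 comparisons, with bars for the SE and open symbols for changes that did not pass the test. In MC903 against control 13 of them fell, from -3.03 (Fa2h) to -0.50 (Gldn), and Nfasc fell with paeonol against MC903 alone.

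Of 15 genes of non-myelinating, immature and repair Schwann cells tested among 16 listed, 3 rose and 5 fell in MC903 against control, with a median log2 change of -0.41. Over all genes tested 23.0% were called higher and 23.8% lower, so the count of 8 among 15 is near the background of 46.8%. Erbb3, the neuregulin receptor of the Schwann cell lineage that keratinocytes also make, had 157, 151 and 167 CPM with paeonol, 153, 148 and 132 CPM with MC903 alone and 131, 108 and 123 CPM in controls. It rose by 0.26 ± 0.08 in MC903 against control (adjusted p = 0.0215), a call that ended with library totals alone (adjusted p = 0.512) or without the second control library or the first or second MC903 library (adjusted p = 0.0673 to 0.0916). With paeonol it was 0.40 ± 0.08 above control (adjusted p = 0.00362), and its change from MC903 alone was 0.14 ± 0.08 (adjusted p = 0.243).

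Cdh19, a cadherin of the Schwann cell lineage, had 9.98, 8.98 and 9.11 CPM with paeonol, 7.56, 10.1 and 7.22 CPM with MC903 alone and 13.3, 13.2 and 12.4 CPM in controls. It changed by -0.64 ± 0.14 in MC903 against control (adjusted p = 0.00329) and by 0.17 ± 0.14 with paeonol against MC903 alone (adjusted p = 0.425), where the libraries overlapped and the change ran from 0.0809 without the third MC903 library to 0.34 without the second. Its fall with paeonol against control, -0.47 ± 0.14 (adjusted p = 0.0282), was lost without any 1 of the 3 control libraries or without paeonol library 2 or 3 (adjusted p = 0.0542 to 0.0906).

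The 3 genes of this list with the smallest p in MC903 against control were Ptprz1, Ngfr and Artn. Ngfr, the p75 neurotrophin receptor, which marks repair and non-myelinating Schwann cells and is also present elsewhere in skin, had 9.89 to 18.5 CPM with paeonol, 2.72 to 5.25 CPM with MC903 alone and 22.9 to 27.9 CPM in controls. It changed by -2.50 ± 0.28 in MC903 against control (adjusted p = 7.05e-05) and by 1.71 ± 0.28 with paeonol against MC903 alone (adjusted p = 0.00148). Artn, a growth factor that repair Schwann cells make, rose by 2.97 ± 0.37 in MC903 against control (adjusted p = 5.23e-05) and fell by 1.63 ± 0.35 with paeonol against MC903 alone (adjusted p = 0.00433). Ptprz1, a receptor phosphatase of glia, had 40.7 to 81.7 CPM with paeonol, 169 to 207 CPM with MC903 alone and 13.7 to 18.6 CPM in controls. It rose by 3.57 ± 0.27 in MC903 against control (adjusted p = 2.64e-05) and fell by 1.72 ± 0.25 with paeonol against MC903 alone (adjusted p = 0.00176). Whether Schwann cells or other cells of the ear held the RNA of Artn and Ptprz1 was not tested.

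With paeonol against MC903 alone 3 of the 15 rose and 3 fell, where 15.3% of all genes tested were called higher and 14.3% lower. Those that rose were Ngfr and, named after their values were seen, Olig1, by 2.15 ± 0.51 (adjusted p = 0.008), and Cadm2, by 0.79 ± 0.22 (adjusted p = 0.0195). Olig1 had only 12 to 61 estimated counts in MC903 libraries. Its change ran from 1.79 to 3.18 with a library left out, with a highest adjusted p of 0.0339. The call of Cadm2 ended in a fit of the 2 groups alone (adjusted p = 0.0501) or without the first MC903 library or the first or second paeonol library (adjusted p = 0.0551 to 0.072). Those that fell were Artn, Ptprz1 and Scn7a, a sodium channel of non-myelinating Schwann cells, which was also named after its values were seen. Scn7a fell by 0.41 ± 0.13 (adjusted p = 0.0369), a call that ended with library totals alone (adjusted p = 0.0554) or without control library 1, MC903 library 2 or 3 or any 1 paeonol library (adjusted p = 0.0516 to 0.127). With paeonol against control 3 of the 15 rose and 4 fell, and the count of 7 called became 4 without the third control library. Over all genes tested 16.3% were called higher and 14.5% lower there.

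Of 14 neuron and axon genes, 7 passed the filter. The cell bodies of sensory neurons lie outside the ear, and the neurofilament genes Nefl, Nefm and Nefh were below the filter. In MC903 against control 1 gene rose and 3 fell. Over all genes tested 46.8% were called, 23.0% higher and 23.8% lower, so the count called is near that share. Gap43, a growth cone protein that Schwann cells also make, fell by 1.41 ± 0.23 (adjusted p = 0.000425) and Uchl1 had a change of -0.94 ± 0.22 (adjusted p = 0.00403). Tubb3, a tubulin of neurons, had 37.8 to 68.3 CPM with paeonol, 91.4 to 98.1 CPM with MC903 alone and 1.73 to 2.82 CPM in controls, and rose by 5.37 ± 0.27 in MC903 against control (adjusted p = 1.59e-06). It was the 1 gene of the list that rose, and which cells held its RNA was not tested. With paeonol against MC903 alone the median log2 change of the 7 genes was 0.53. Gap43 and Uchl1 changed by 0.57 ± 0.23 and 0.53 ± 0.22 and were not called (adjusted p = 0.0922 and 0.094). In that comparison no gene of the list was called higher and 2 fell, where 15.3% of all genes tested were called higher and 14.3% lower. They were Tubb3, by 0.90 ± 0.21 (adjusted p = 0.0137), a call that ended without the second paeonol library (adjusted p = 0.054), and Calca, named after its values were seen, which had no count in any paeonol library and 4 to 28 estimated counts in MC903 libraries. The call of Calca ended without the second MC903 library (adjusted p = 0.059). At a mean CPM of at least 1, in the fit of 2 groups and with counts divided by 4 Calca was not tested, and 1 gene of the list was called.

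Several cell types other than Schwann cells can hold RNA of the members, and markers of some moved in the same direction. Sox10 is also made by melanocytes. Of 8 melanocyte markers 3 rose and none fell in MC903 against control, where 23.0% of all genes tested were called higher and 23.8% lower. The summed level of these markers was 106 to 128 CPM with paeonol, 93.0 to 126 CPM with MC903 alone and 78.1 to 88.2 CPM in controls. Both treated groups lay above the controls and overlapped each other. Tyrp1, a pigment enzyme, rose by 0.74 ± 0.18 (adjusted p = 0.00665), Mitf by 0.30 ± 0.10 (adjusted p = 0.0206) and Oca2 by 1.10 ± 0.40 (adjusted p = 0.0417). The call of Mitf ended without control library 1 or 3 or MC903 library 3 (adjusted p = 0.0698 to 0.0864). That of Oca2 ended without control library 2 or 3, any 1 MC903 library or paeonol library 3 (adjusted p = 0.0527 to 0.135). With library totals alone 1 melanocyte marker was called. The part of melanocytes in the change of Sox10 was not tested.

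S100b is also made by adipocytes and chondrocytes, whose markers fell with it. In MC903 against control 23.8% of all genes tested were called lower. All 8 adipocyte markers fell in MC903 against control, among them Plin1 at -3.15 ± 0.19 (adjusted p = 4.75e-07), Adipoq at -2.36 ± 0.15 (adjusted p = 5.32e-07) and Lep at -2.81 ± 0.20 (adjusted p = 1.3e-06). Their summed level was 177 to 209 CPM with paeonol, 167 to 210 CPM with MC903 alone and 308 to 401 CPM in controls. With paeonol against MC903 alone 5 of the 8 rose and 1 fell, and 3 of the 8 were called without control library 3, MC903 library 2 or paeonol library 3. Over all genes tested 15.3% were called higher and 14.3% lower in that comparison. Of 7 cartilage markers tested among 8 listed, 6 fell in MC903 against control, among them Col11a2 at -2.21 ± 0.13 (adjusted p = 4.54e-07), Sox9 at -1.35 ± 0.09 (adjusted p = 9.38e-07) and Acan at -0.91 ± 0.10 (adjusted p = 2.42e-05). Matn1 had no count in any library. The summed cartilage level was 228 to 314 CPM with paeonol, 173 to 197 CPM with MC903 alone and 367 to 457 CPM in controls. S100b shares this order, as do Mbp, Prx and the sum of the 8 members. So do Adipoq, Plin1 and Lep of the adipocyte list, Acta1 of muscle and Col1a1 of fibroblasts. The adipocyte sum does not. Its largest part was Fabp4, named after its values were seen, with 83.0 CPM with paeonol and 119 CPM with MC903 alone. With paeonol against MC903 alone 5 of the 7 cartilage markers rose, beside the same 15.3% of all genes tested, and 3 without MC903 library 1 or 3. The part of these cells in the change of S100b was not tested.

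Ncam1 is also made by muscle. The share of all genes tested called lower in MC903 against control was 23.8%. Of 10 skeletal muscle markers 8 fell in MC903 against control, among them Mb at -1.39 ± 0.12 (adjusted p = 9.33e-06), Ttn at -1.27 ± 0.13 (adjusted p = 2.52e-05) and Acta1 at -1.50 ± 0.17 (adjusted p = 0.000112). Their summed level was 1580 to 2160 CPM with paeonol, 1380 to 1650 CPM with MC903 alone and 3130 to 4700 CPM in controls. The part of muscle in the change of Ncam1 was not tested.

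Fibroblasts make Pmp22 as well. For the counts that follow, 46.8% of all genes tested were called in MC903 against control, 23.0% higher and 23.8% lower. Of 8 fibroblast markers 5 fell and 2 rose in MC903 against control, with Col1a1 at -1.87 ± 0.14 (adjusted p = 5.7e-06), Col3a1 at -1.47 ± 0.17 (adjusted p = 9.26e-05) and Dpp4 at 1.06 ± 0.15 (adjusted p = 0.000153). Their summed level was 3230 to 4090 CPM with paeonol, 2400 to 3340 CPM with MC903 alone and 6430 to 7010 CPM in controls. Keratinocyte markers stood the other way, with summed levels of 43000 to 47500 CPM with paeonol, 38200 to 44600 CPM with MC903 alone and 16100 to 17900 CPM in controls. In MC903 against control 5 of the 8 keratinocyte markers rose and 1 fell, and Krt14, Cdh1 and Krt6a rose by 1.3 ± 0.07, 0.55 ± 0.07 and 4.46 ± 0.39 (adjusted p = 4.13e-07, 4.77e-05 and 8.89e-05). The gene that fell was Krt5, at -0.20 ± 0.06 (adjusted p = 0.0167), and Trp63 and Krt10 were not called, at -0.02 and -0.17. The sum in MC903 alone was led by Krt14 and Krt16, at 13600 and 9020 CPM, against 5530 and 278 CPM in controls. Krt5, Trp63, Krt10 and Krt16 were named after their values were seen. Leukocyte markers summed to 446 to 664 CPM with paeonol, 984 to 1120 CPM with MC903 alone and 653 to 849 CPM in controls. Most of each sum was Lyz2, with means of 286, 669 and 481 CPM in that order. Ptprc was not called in MC903 against control, at -0.13 ± 0.12 (adjusted p = 0.41). Lyz2 and Ptprc were named after their values were seen. Of 8 leukocyte markers 5 rose and 1 fell in MC903 against control, with Itgam at 1.75 ± 0.19, Cd68 at 0.88 ± 0.13 and Cd3e at -1.42 ± 0.29 (adjusted p = 4.24e-05, 0.000264 and 0.00181), and 3 of the 8 were called with library totals alone or without control library 1 or 3 or the first or second MC903 library. CPM are relative to all RNA of a library, and the part of keratin RNA in the fall of the 8 members was not tested.

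**Figure D4:**
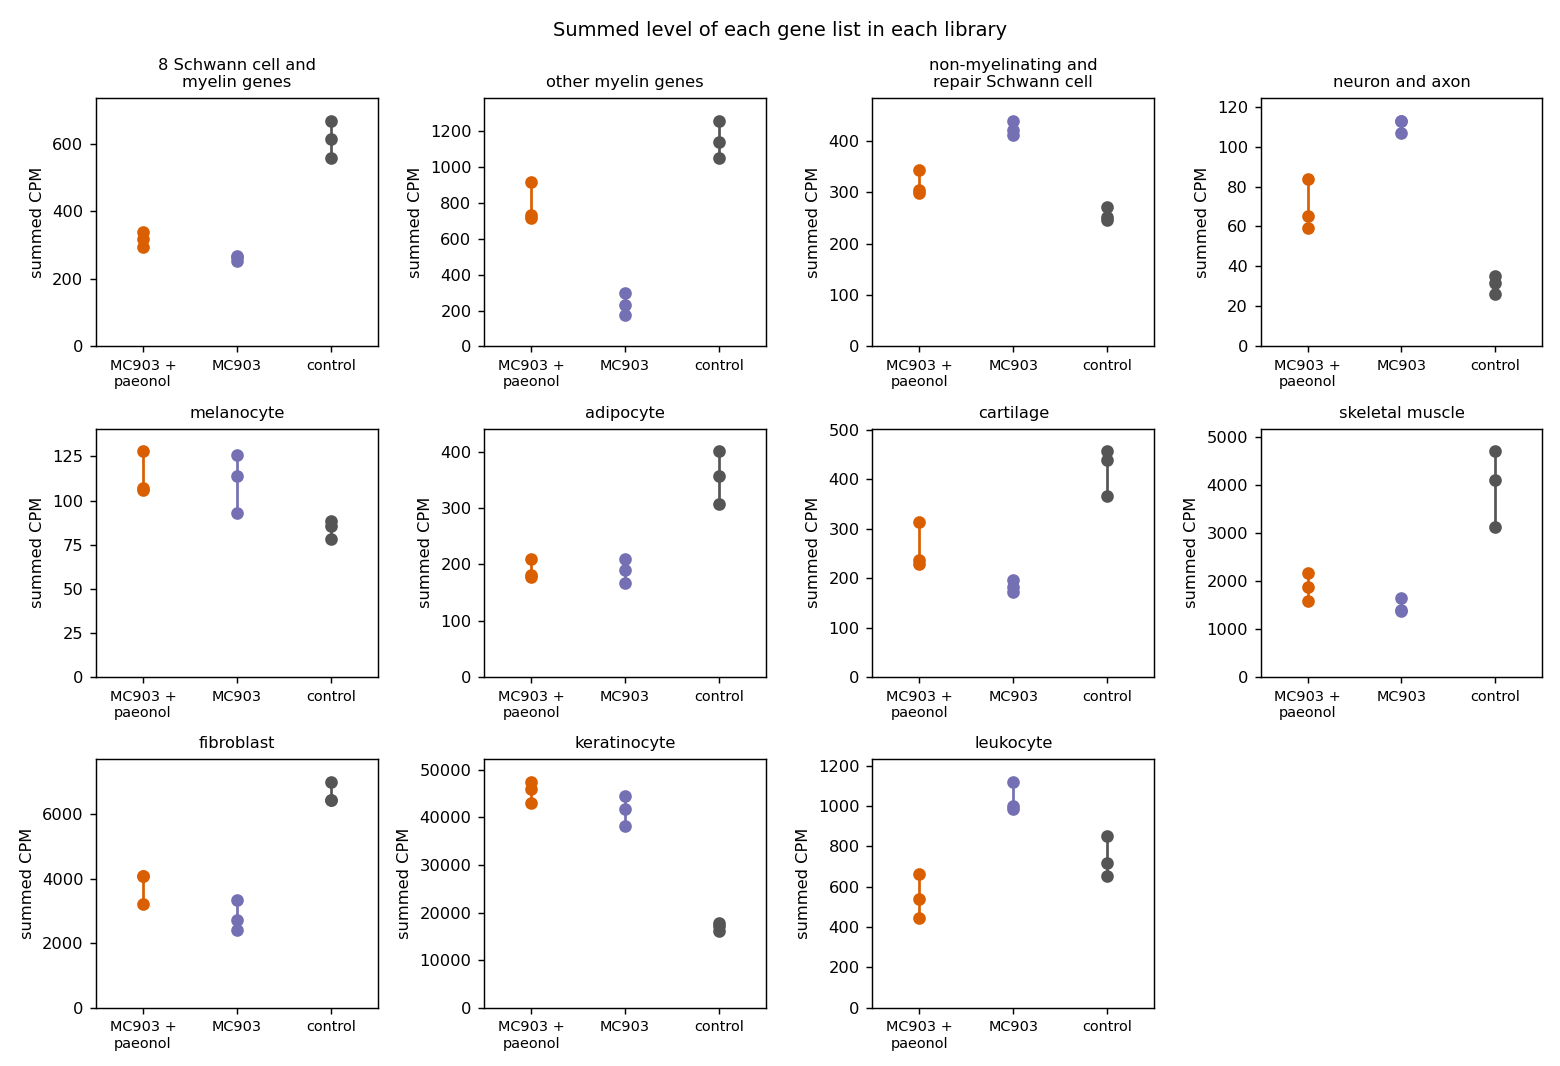
Summed level of each gene list (vertical axis, CPM, from 0, a scale of its own in each panel), with 1 point per library and a line from the lowest to the highest. The 8 Schwann cell and myelin genes summed to 295 to 340 CPM with paeonol, 252 to 267 CPM with MC903 alone and 558 to 669 CPM in controls, and adipocyte, cartilage, skeletal muscle and fibroblast markers were also highest in controls. The panel of other myelin genes is led by Fa2h, that of adipocytes by Fabp4 and that of leukocytes by Lyz2. That of neurons and axons is led by Tubb3 in the groups given MC903.

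Among 14745 genes with a symbol and a mean log2 CPM of at least 1, the pattern nearest to the mean of the 8 members over the 9 libraries was that of Tspan13, with a root mean square difference of 0.0809 on the log2 scale. Its mean level was 9.96 ± 1.24 CPM with paeonol, 7.77 ± 0.538 CPM with MC903 alone and 18.8 ± 1.29 CPM in controls. The next were Asap3, Serpinf1, Anks6, Mapk8ip1, Ccl21a, Sncg, Sparcl1, Vit and Gnao1, with differences up to 0.112. None of the 10 is in any list used here. The members themselves lay from 0.132 (Pmp22) to 0.339 (Mag) from their own mean. The genes nearest to Mbp alone were Fxyd6, Pdk2 and Plekhb1, with differences of 0.0766, 0.0803 and 0.0892. Fxyd6 had 89.7 ± 4.18 CPM with paeonol, 58.9 ± 2.09 CPM with MC903 alone and 180 ± 21.9 CPM in controls.

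Exons of 3 members overlap a gene on the opposite strand, and since the sources used here do not give the strand setting of the counting, their reads cannot be told apart. Cnp overlaps Dnajc7, a more abundant gene at 172 ± 6.97 CPM with paeonol, 176 ± 5.9 CPM with MC903 alone and 154 ± 1.66 CPM in controls, so the levels of Cnp are uncertain. Prx overlaps Gm15541, at under 1 CPM in each group mean, and Ncam1 overlaps Gm11149, with at most 4 estimated counts in a library.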

How the data were processed

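Poly(A)-selected RNA of 9 mouse ear libraries was sequenced (Trizol extraction, integrity number above 7.0 and dUTP marking of the second strand, per the labels' protocols). Cutadapt, HISAT2 2.0.4, StringTie 1.3.4d and GRCm38 are named in the submitters' processing notes; the sources used here do not give which did what, or with which annotation and strand setting. The authors deposited 1 whole number per gene and library, read here as unscaled estimated counts. Small values favour multiples of 4, so the depth in fragments may be lower than the totals. On counts divided by 4, replicates differed by 6.51 to 14.4 in chi-square for each degree of freedom. Groups came from the treatment label. All 9 libraries were fitted together in edgeR 4.0.16 (R 4.3.3, limma 3.58.1 and data.table version 1.17.8), with TMM factors of 0.942 to 1.09, filterByExpr (minimum count 10, minimum total 15), a robust quasi-likelihood fit and the 3 pairwise contrasts. The SE was taken from the change and its F value. Same-numbered libraries did not deviate together (correlations from -0.0113 to 0.04), and the main fit did not pair them. With 3 libraries a group, these correlations cannot exclude that same-numbered samples were handled together.

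The members, the lists and the tests were chosen with earlier results of these data known. The genes named are the 8 members, with Egr2, Erbb3 and Cdh19 in every comparison, the 3 genes of each other list with the smallest p in MC903 against control, the 10 genes nearest to the members' mean and the 3 nearest to Mbp by the root mean square difference of centred log2 CPM (prior count 2). Some genes that the rule and the myelin list take are not reported here. Genes outside this rule are said to be named after their values were seen. The alternatives tried were library totals alone, DESeq2 1.42.0 or only its size factors, no filter, a mean CPM of at least 1, fits of 2 groups, the replicate number as a block, counts divided by 4 and each library left out. The same alternatives for the other lists and most other named genes were added after the data were seen. They are not given for Krt5, Trp63, Krt10, Krt16, Fabp4, Lyz2 and Ptprc. Gene symbols and exon lengths came from GENCODE M21.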

Additional observations from a re-analysis of the deposited data

How the results depend on the processing

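All 8 members kept the direction and the side of the threshold of every log2 change under DESeq2, its size factors, library totals alone, no filter, a mean CPM of at least 1, fits of 2 groups, counts divided by 4 and the replicate block. Under the replicate block, 8, 3 and 8 members were called in MC903 against control, paeonol against MC903 and paeonol against control, and the genes called were 10104, 6348 and 6673. Among the named genes tried under it, the block changed 1 call, Oca2 in MC903 against control (adjusted p = 0.0629). DESeq2 called 10687, 7099 and 7406 genes. Library totals alone gave a median of all genes of -0.197 with paeonol against control, and 8 members were still called. With each library left out in turn, the genes called ranged from 9012 to 10376, from 5065 to 6328 and from 5216 to 6710, and the members called were 8 throughout in MC903 against control, 2 to 3 in paeonol against MC903 and 5 to 8 in paeonol against control. The count of 5 came without the second control or the third paeonol library, which leaves 2 libraries in a group. The changes of Pmp22 between paeonol and MC903 ranged from -0.00783 to 0.146. Mag had the fewest estimated counts of the members, 56 to 341 per library.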
